A study of Mus musculus with 9 samples.

Results

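The BTG/TOB genes encode small antiproliferative proteins that share a conserved BTG domain. The 5 genes of the set, Btg1, Btg2, Btg3, Tob1 and Tob2, were taken by symbol from the platform annotation of the arrays, with the brightest probe set standing for a gene. Btg1, Btg2, Tob1 and Tob2 each had a single probe set, so that brightness decided nothing, and these 4 are among the 12579 genes tested. Btg3 was annotated only on 2 probe sets that also carry Gm7334, listed by RefSeq as a transcribed pseudogene, and it has no value of its own here. The set was proposed after the difference of Btg2 between Tyk2-/- and wild-type cells, and the distance of experiment 1 from the other experiments, had been seen in these data. The members were thus chosen by name and, as a family, selected on those measured log2 differences, which are therefore given as descriptions, with the p of the fit over all genes and no further support drawn from them.

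Splenic natural killer (NK) cells came from female C57BL/6N mice that were wild type (WT), lacked the Janus kinase Tyk2 (Tyk2-/-) or carried its kinase-inactive form (Tyk2K923E). Cells enriched with DX5 beads were pooled from 3 to 4 mice for each genotype and experiment, and every pool was cultured for 7 days with recombinant human IL-2 at 5000 U/ml. Each of 3 independent experiments gave 1 array per genotype, 9 arrays in all, and no freshly isolated or unstimulated cells are part of the comparison. A value describes a pool of expanded cells, in which fewer cells of a type and less RNA per cell cannot be told apart.

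BTG and TOB proteins bind the CNOT7 and CNOT8 deadenylases of the CCR4-NOT complex, which shortens poly(A) tails and so hastens the decay of mRNA. In lymphocytes BTG1, BTG2 and TOB1 are known for holding resting cells in quiescence, and TOB1 and TOB2 also bind the cytoplasmic poly(A)-binding protein. Btg2 is in addition an immediate early gene and a target of p53.

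The arrays carried the markers of their label. All 15 NK cell markers, among them Ncr1, Klrb1c and Eomes, lay at or above the array median on all 9 arrays, and their mean level ran from 10.9 to 11.2 log2 units. Of 13 T cell markers, 11 to 13 reached the median, with mean levels of 7.62 to 8.26. At most 1 of 7 B cell markers and 2 or 3 of 6 monocyte and macrophage markers did so. The T cell markers differed widely in level. Cd3e and Cd3g averaged 11.2 and 11.4 over the arrays, as high as Ncr1 at 11.3, while Trat1, the dimmest one tested, averaged 5.58. The probe set of Tyk2 itself read 8.62 in WT, 8.53 in Tyk2K923E and 9.01 in Tyk2-/- on average, but whether its probes lie in the deleted part is not given in the sources used here, so it checks no label and directions refer to the arrays as labelled. The array medians lay between 5.42 and 5.48, and the correlation between any pair of arrays across the genes tested was 0.966 or more. Precision is limited by the number of arrays. With 3 for each genotype, an exact unpaired permutation test of 3 arrays against 3 could reach no p under 0.1. A paired one, with fewer rearrangements, has a higher floor.

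Btg2 read lower in Tyk2-/- than in WT cells in each experiment. The difference passed in limma only with the experiments paired, all 9 arrays kept and dim probe sets filtered out. Apart from genotype, Btg2 stood far higher in experiment 1 than in experiments 2 and 3. In WT cells its log2 level was 10.04 in experiment 1, 8.94 in experiment 2 and 9.08 in experiment 3. In Tyk2K923E cells the levels were 9.89, 8.83 and 8.95, and in Tyk2-/- cells 9.44, 8.55 and 8.57. Within every experiment WT was highest, Tyk2K923E followed and Tyk2-/- was lowest, an order that 0.763% of all genes tested kept in all 3 experiments. The order was read from Btg2 itself and another could have been named, so the share does not show that such a pattern is rare. The genotype ranges nevertheless overlapped, because the Tyk2-/- array of experiment 1 read above the WT arrays of experiments 2 and 3. Group means were 9.35 ± 0.60 in WT, 9.22 ± 0.58 in Tyk2K923E and 8.85 ± 0.51 in Tyk2-/- (SD, n = 3).

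**Figure D1:**
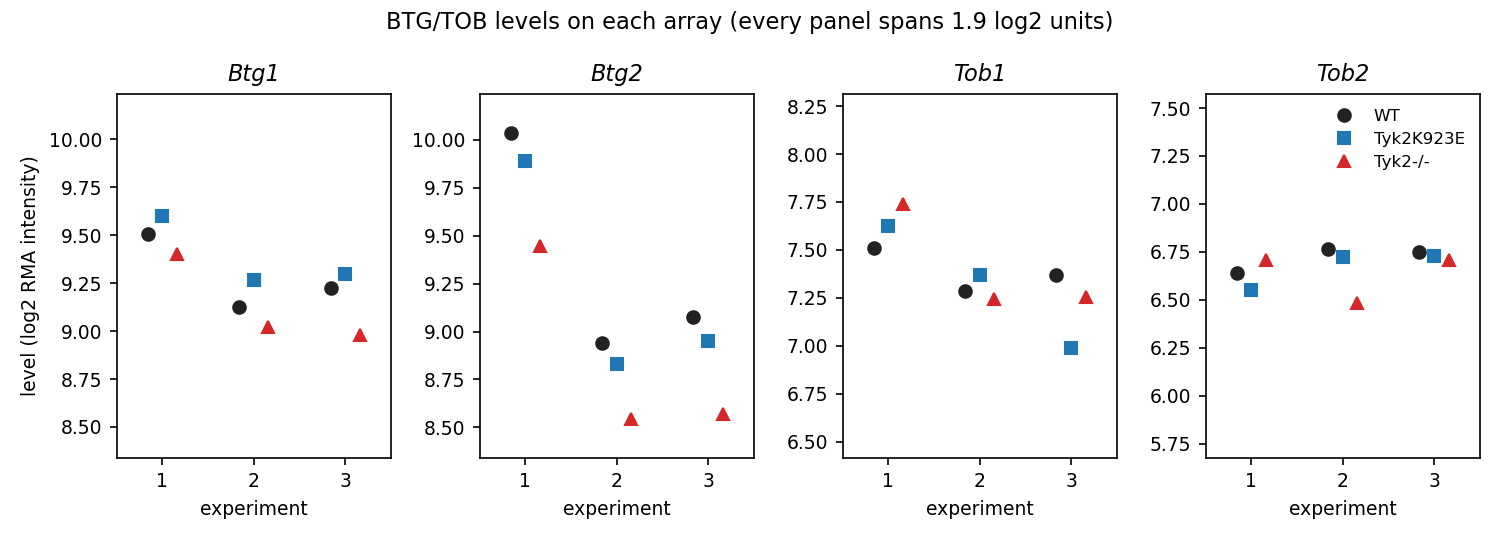
Log2 RMA intensity of Btg1, Btg2, Tob1 and Tob2 on each of the 9 arrays, by experiment on the horizontal axis and genotype by symbol, with every panel spanning the same number of log2 units. Btg2 runs from 10.04 in WT of experiment 1 to 8.55 in Tyk2-/- of experiment 2, with Tyk2-/- lowest in each experiment, while Tob2 stays between 6.49 and 6.77.

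The sequences before the annotated starts of these genes are shown as a description, and a link to the levels of the genes was not tested. They are the 250 bases upstream of the RefSeq start in GRCm38.p6, written 5′ to 3′ on the strand of the gene. The window of Btg2 is chr1:134079156-134079405 on the minus strand, that of Btg1 is chr10:96616751-96617000 on the plus strand, that of Tob1 is chr11:94211204-94211453 on the plus strand and that of Tob2 is chr15:81858327-81858576 on the minus strand. Capitals mark exact matches to the motifs described after them, and a match on the opposite strand appears as its reverse complement.
Btg2: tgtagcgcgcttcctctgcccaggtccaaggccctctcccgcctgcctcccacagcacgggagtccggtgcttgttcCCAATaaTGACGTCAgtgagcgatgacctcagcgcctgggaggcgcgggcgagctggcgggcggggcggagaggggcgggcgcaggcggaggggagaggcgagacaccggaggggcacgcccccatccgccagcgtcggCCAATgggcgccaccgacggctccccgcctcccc
Btg1: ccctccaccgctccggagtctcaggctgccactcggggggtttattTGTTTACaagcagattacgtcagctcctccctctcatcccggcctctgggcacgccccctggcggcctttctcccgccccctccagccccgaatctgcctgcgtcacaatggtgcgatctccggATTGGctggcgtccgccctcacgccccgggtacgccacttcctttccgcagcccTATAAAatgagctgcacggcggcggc
Tob1: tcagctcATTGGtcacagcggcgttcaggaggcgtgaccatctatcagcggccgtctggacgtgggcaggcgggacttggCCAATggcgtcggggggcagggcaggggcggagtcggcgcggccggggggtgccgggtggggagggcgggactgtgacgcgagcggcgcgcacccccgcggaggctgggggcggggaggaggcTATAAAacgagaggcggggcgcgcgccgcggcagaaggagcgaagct
Tob2: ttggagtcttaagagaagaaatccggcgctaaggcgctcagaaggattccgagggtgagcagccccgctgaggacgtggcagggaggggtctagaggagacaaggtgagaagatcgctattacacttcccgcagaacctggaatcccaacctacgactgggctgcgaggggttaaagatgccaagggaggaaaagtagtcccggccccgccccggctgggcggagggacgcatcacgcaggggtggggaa

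Motifs were searched on both strands of the 300-base RefSeq windows, which reach 50 bases past the start. Btg2 held a full cAMP response element, TGACGTCA, 166 bases upstream, a motif present in 1.79% of all 32851 promoter windows. A CCAAT box (CCAAT, in 37.4% of windows) stood just before it, from 173 bases, and another at 34 bases. Btg1 held a FOXO site (GTAAACA, in 3.65% of windows) at 204 bases, a CCAAT box at 80 bases and a TATA element (TATAAA, in 13.6% of windows) at 26 bases. Tob1 held 2 CCAAT boxes at 243 and 170 bases and a TATA element at 47 bases. Tob2 held no match to any of the 6 motifs. None of the 4 windows held a STAT site of the form TTCNNNGAA (8.30% of windows) or the interferon-stimulated response element searched (3.44% of windows). The TATA element was added to the search after the windows had been read, and a match describes letters only.

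**Figure D2:**
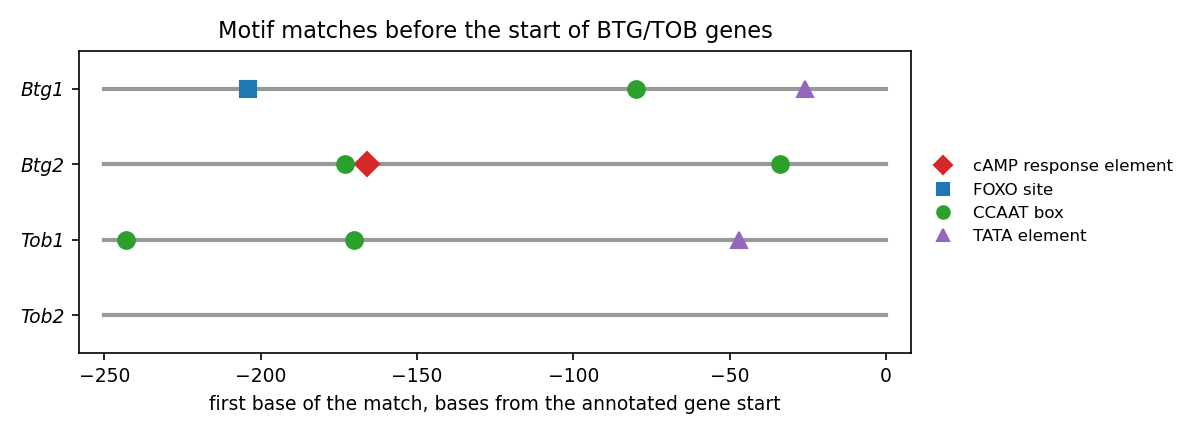
Positions of motif matches in the 250 bases before the annotated start of 4 BTG/TOB genes, with the distance in bases from the start on the horizontal axis and one line per gene. Btg2 alone among these 4 windows has the cAMP response element, 166 bases before the start, and the line of Tob2 is empty.

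Setting Tyk2-/- against WT addresses the loss of the whole kinase in IL-2-expanded NK cells. Btg2 differed by -0.59 in experiment 1, -0.40 in experiment 2 and -0.51 in experiment 3 on the log2 scale. The mean difference was -0.50 (SE 0.06, 95% interval -0.64 to -0.36), a 1.41-fold lower level, and it passed in limma with the experiments paired (adjusted p = 0.0446, unadjusted p = 3.68e-05). Of the 4 tested BTG/TOB genes 1 was called, beside 0.0874% of all genes in the paired fit and 0.0318% in the unpaired one, and 2 had an unadjusted p under 0.05 with pairing and 0 without, beside 9.08% and 2.08%. As the set was proposed with this call known, these shares say nothing about the family. Without pairing the standard error of Btg2 was 0.39 and the adjusted p = 1 in limma. The call was also lost in each of 12 fits that left out 1 array or 1 experiment, where the difference stayed between -0.55 and -0.45 and the limma adjusted p ran from 0.0684 to 0.671. Without experiment 1 it was -0.45 (limma adjusted p = 0.451).

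Btg1, the closest relative of Btg2, was lower in Tyk2-/- than in WT in each experiment, with differences of -0.10, -0.10 and -0.25. Its levels were 9.51, 9.12 and 9.23 in WT and 9.40, 9.02 and 8.98 in Tyk2-/-, so the ranges overlapped although each experiment gave the same sign. The mean difference of -0.15 (SE 0.06, 95% interval -0.29 to -0.016) missed the threshold in limma over all genes (adjusted p = 0.501 paired, 1 unpaired). A lower level in all 3 experiments was seen in 13.6% of genes tested.

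Tob1, a partner of SMAD proteins and of the poly(A)-binding protein, showed no common direction between these genotypes. Its WT levels were 7.51, 7.29 and 7.37 and its Tyk2-/- levels 7.74, 7.25 and 7.25 in experiments 1, 2 and 3. The difference was 0.23 in experiment 1 and -0.039 and -0.11 in the others, with a mean of 0.026 (95% interval -0.22 to 0.27, limma paired adjusted p = 0.96). Tob2, its paralogue, read 6.64, 6.77 and 6.75 in WT and 6.71, 6.49 and 6.71 in Tyk2-/-. Its mean difference of -0.083 (95% interval -0.27 to 0.11, limma paired adjusted p = 0.801) held differences of 0.071, -0.28 and -0.039 in experiments 1, 2 and 3.

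Setting Tyk2K923E against WT addresses a kinase that is present but inactive. Btg2 differed by -0.15, -0.11 and -0.13 in experiments 1, 2 and 3, which are close to one another but small. The mean of -0.13 (SE 0.06, 95% interval -0.27 to 0.013) did not pass (limma adjusted p = 0.552 paired, 1 unpaired). Btg1 lay in the opposite direction, with Tyk2K923E levels of 9.60, 9.27 and 9.30 that exceeded WT by 0.094, 0.14 and 0.073. That mean of 0.10 (95% interval -0.033 to 0.24, limma paired adjusted p = 0.628) did not pass either. None of the 4 tested BTG/TOB genes was called here by the paired or the unpaired fit, and 0 had an unadjusted p under 0.05 in either, beside 0.0874% (paired) and 0.00795% (unpaired) of all genes called and 10.0% and 4.21% at an unadjusted p under 0.05.

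Tob1 read 7.63, 7.37 and 6.99 in Tyk2K923E cells, against the WT levels given before. It was above WT by 0.12 and 0.083 in experiments 1 and 2 and differed by -0.38 in experiment 3, where Tyk2K923E gave the lowest of its 9 arrays (mean -0.059, 95% interval -0.30 to 0.18, limma paired adjusted p = 0.902). Tob2 read 6.55, 6.72 and 6.73 and differed from WT by -0.085, -0.044 and -0.022 (mean -0.050, 95% interval -0.24 to 0.14, limma paired adjusted p = 0.89). Both comparisons with WT use the same 3 WT arrays.

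The mutants were also set against each other directly. Btg2 was lower in Tyk2-/- than in Tyk2K923E in each experiment, with differences of -0.45, -0.29 and -0.38 and a mean of -0.37 (SE 0.06, 95% interval -0.51 to -0.23). Btg1 was lower too, with differences of -0.20, -0.24 and -0.32 and a mean of -0.25 (SE 0.06, 95% interval -0.39 to -0.12). Neither passed in limma over all genes (paired adjusted p = 0.242 for Btg2 and 0.452 for Btg1, unadjusted p = 2.89e-04 and 0.00256). A difference between the absent and the inactive kinase is therefore not established for either gene, although each was lower in 3 of 3 experiments, as were 14.3% of all genes. Of the 4 tested members 0 were called in this comparison, beside 0.0238% of all genes in the paired fit and the same share in the unpaired one, and the count of members at an unadjusted p under 0.05 was 2 with pairing and 0 without, beside 9.68% and 2.41% of all genes. Tob1 differed by 0.085 (95% interval -0.16 to 0.33) and Tob2 by -0.033 (95% interval -0.22 to 0.16), each with a mixture of signs.

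By the order of their values, Btg1 and Btg2 differed in where Tyk2K923E stood. Neither gene passed in Tyk2K923E against WT, and a difference between the genes was not tested. For Btg1 the order was Tyk2K923E, WT and Tyk2-/- from high to low in every experiment, which 0.755% of genes tested kept. For Btg2 it was WT, Tyk2K923E and Tyk2-/-. In both genes, Tyk2-/- was lowest each time. The Btg1 order was likewise read from its own values, so its share does not show that such a pattern is rare.

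**Figure D3:**
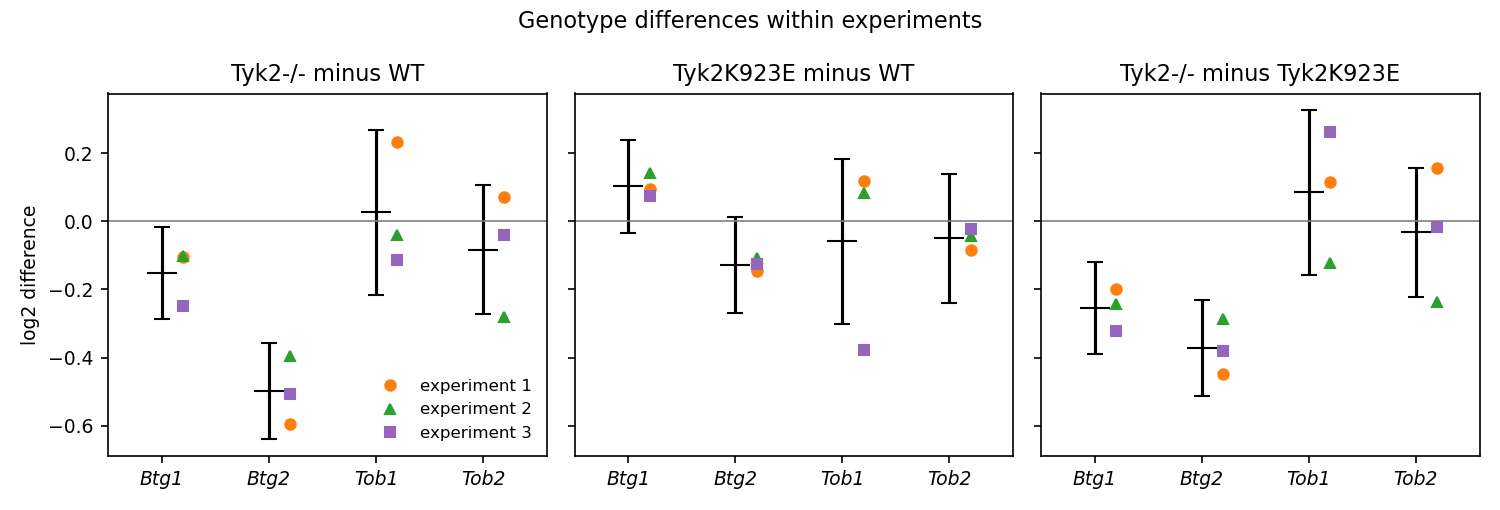
Log2 differences of 4 BTG/TOB genes in the 3 genotype comparisons, with the mean and its 95% interval from the paired limma fit (black) and the difference within each experiment (coloured symbols). The 3 experiments lie close together for Btg2, between -0.59 and -0.40 in Tyk2-/- minus WT, and spread across 0 for Tob1.

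The T cell markers were examined beside the Btg2 result, since T cells can persist in splenic NK cultures and express BTG genes. Their mean level was 8.11, 7.90 and 8.26 in WT, 7.94, 7.89 and 8.12 in Tyk2-/- and 7.62, 7.89 and 7.78 in Tyk2K923E. Of 12 tested T cell markers 11 were lower in Tyk2-/- and 12 in Tyk2K923E, with medians of -0.099 and -0.37, and 0 were called in either comparison by the paired or the unpaired fit, while 0 and 7 had an unadjusted p under 0.05 with pairing, beside 9.08% and 10.0% of all genes. Of 15 NK cell markers 10 and 9 were lower, with medians of -0.14 and -0.12, and 7 and 6 had an unadjusted p under 0.05 with pairing, beside the same shares of all genes. Itga2, the antigen of the DX5 antibody, fell in Tyk2K923E (-0.71, limma paired adjusted p = 0.0375, 0.155 unpaired) and was the only NK cell marker called, beside 0.0874% of all genes called with pairing. In Tyk2-/- 0 were called in either fit, and the smallest p belonged to Klrd1, which encodes the CD94 subunit of NK receptors, at -0.35, to Itga2 at -0.39 and to Klrk1, which encodes the receptor NKG2D, at -0.32 (limma paired adjusted p = 0.223, 0.254 and 0.287). The single tested B cell marker, Cd79b, differed by 0.098 and -0.0030. Of the 2 tested monocyte and macrophage markers, the lipopolysaccharide co-receptor gene Cd14 differed by 0.20 and 0.42 and Cd68 by -0.077 and -0.24, with 0 calls in either fit. Between the mutants, 10 of the 12 T cell markers were higher in Tyk2-/- than in Tyk2K923E (median 0.34), with 0 calls in either fit. Of them 6 had an unadjusted p under 0.05 with pairing, beside 9.68% of all genes. Among T cell markers in Tyk2K923E against WT, the smallest p belonged to Bcl11b, Lat and Cd8a. They differed by -0.42, -0.48 and -0.92 (limma paired adjusted p = 0.0521, 0.0696 and 0.173). The part of the cell types marked by all these lists in the Btg2 result was not tested.

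Experiment 1 was next compared with experiments 2 and 3, averaged over the genotypes. The first principal component of all genes tested holds 61.0% of the variance and sets the 3 arrays of experiment 1 apart from the other 6. On this component Tyk2-/- had the lowest score in every experiment, on the side away from experiment 1. In experiment 1 the scores were 24.1 in WT, 29.1 in Tyk2K923E and 12.9 in Tyk2-/-, in experiment 2 they were -8.42, -9.61 and -11.3, and in experiment 3 they were -10.4, -10.6 and -15.7. Btg2 was likewise lowest in Tyk2-/- in each experiment and lower outside experiment 1, and the part of this component in its genotype difference was not tested. That experiment 1 stands apart was learned from these data, so what follows are values without a test. The labels do not say which conditions the 3 arrays of an experiment share, and they give no reagent lot, date or cell density. What distinguished the experiments was not tested.

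Btg2 averaged 9.79 ± 0.31 (SD over 3 arrays) in experiment 1 and 8.82 ± 0.22 (SD over 6 arrays) in the others, a difference of 0.97 or 1.96-fold. It was higher by 1.03 in WT, 1.00 in Tyk2K923E and 0.89 in Tyk2-/-, so the step between experiments exceeded the genotype difference in each genotype. All 3 arrays of experiment 1 lay above the other 6, and of 12579 genes Btg2 had the 55th highest difference. Experiments 2 and 3 were close, at 8.77 and 8.86.

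Btg1 averaged 9.50 ± 0.10 in experiment 1 and 9.15 ± 0.13 in the others, a difference of 0.35 or 1.27-fold. It was higher by 0.33 in WT, 0.32 in Tyk2K923E and 0.40 in Tyk2-/-. Tob1 averaged 7.62 ± 0.12 and 7.25 ± 0.14, a difference of 0.37 or 1.29-fold, with 0.18 in WT, 0.45 in Tyk2K923E and 0.49 in Tyk2-/-. In both genes the lowest array of experiment 1 was above the highest of the other 6, by 9.40 against 9.30 for Btg1 and 7.51 against 7.37 for Tob1.

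Tob2 differed from its relatives in this respect. It averaged 6.63 ± 0.08 in experiment 1 and 6.69 ± 0.10 in the others, with differences of -0.12 in WT, -0.17 in Tyk2K923E and 0.11 in Tyk2-/-, and the arrays overlapped. Of 4 tested BTG/TOB genes 3 had every array of experiment 1 above all others, a pattern found in 14.5% of all genes, while 18.7% showed the reverse. As the set was proposed with the distance of experiment 1 known, these shares say nothing about the family. The median difference over all genes tested was 0.00013.

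The share of variation that each source held differed accordingly. For Btg2, 82.1% of the sum of squares over the 9 arrays lay between experiments, 17.4% between genotypes and 0.476% in the remainder. For Btg1 the shares were 69.8%, 27.9% and 2.29%, and for Tob1 72.7%, 2.85% and 24.5%. Tob2 had 19.8% between experiments, 14.3% between genotypes and 65.8% in the remainder. The medians over all genes tested were 47.2% between experiments and 15.5% between genotypes.

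Btg3 could not be separated from Gm7334 on these arrays, and the 2 probe sets that both symbols share are reported as such. Probe set 17331589 read 8.52, 8.33 and 8.41 in WT, 8.76, 8.46 and 8.58 in Tyk2K923E and 8.45, 8.35 and 8.21 in Tyk2-/- in experiments 1, 2 and 3. Every Tyk2-/- array lay below every Tyk2K923E array on it, with a mean difference of -0.27, a non-overlap that 2.62% of genes tested showed in this direction. The comparison and direction were read from these values, so the share does not show that such a pattern is rare. Probe set 17338529 read 9.14, 8.75 and 9.06 in WT, 9.32, 9.06 and 9.06 in Tyk2K923E and 9.15, 8.98 and 8.73 in Tyk2-/-, and its genotypes overlapped. The shared probe sets differed between experiment 1 and the others by 0.19 and 0.27, and on the second all 3 arrays of experiment 1 lay above the other 6. Btg4, the family member known from oocytes, had a probe set of its own that reached the array median on 0 of 9 arrays (levels 3.56 to 4.20) and was not tested.

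Lists of genes that work with the family were described next. The CCR4-NOT deadenylases and poly(A) partners, through which BTG and TOB proteins act on mRNA, differed little: of 20 listed genes 17 were tested, 0 were called by limma with or without pairing and 0 had an unadjusted p under 0.05 in any comparison with pairing, beside 9.08% to 10.0% of all genes. Their medians were 0.014 in Tyk2-/- and 0.011 in Tyk2K923E against WT, beside medians over all genes of 0.0045 and 0.0020. The smallest p belonged to the poly(A)-binding protein gene Pabpc4 in Tyk2-/- (0.26, limma paired adjusted p = 0.629) and to the deadenylase gene Parn in Tyk2K923E (0.12, adjusted p = 0.579). In experiment 1, 6 of the 17 lay below and 3 above all other arrays, beside 18.7% and 14.5% of all genes, with a median of -0.058.

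Among 9 other binding partners that were tested, 0 were called in any comparison by the paired or the unpaired fit, and 1 had an unadjusted p under 0.05 in each with pairing, beside 9.08% to 10.0% of all genes. This was Smad3, a transducer of TGF-beta signals, at -0.18 in Tyk2-/- and -0.45 in Tyk2K923E (limma paired adjusted p = 0.528 and 0.0867). The median of these partners was -0.094 in Tyk2-/- and -0.044 in Tyk2K923E.

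The p53 targets, a class to which Btg2 belongs, lay on both sides of 0. Of 23 tested targets in the list, which leaves out Btg2, 8 were lower and 15 higher in Tyk2-/-, with a median of 0.041, 0 calls in either limma fit and 6 unadjusted p under 0.05 with pairing, beside 0.0874% of all genes called and 9.08% at an unadjusted p under 0.05 with pairing. Zmat3, an RNA-binding p53 target, differed by 0.33 (adjusted p = 0.258) and Sesn2, a stress-inducible inhibitor of mTORC1, by 0.22 (adjusted p = 0.436), whereas Trp53inp1, a stress-induced p53 cofactor, differed by -0.35 (limma paired adjusted p = 0.482). In Tyk2K923E 12 were lower and 11 higher, with a median of -0.016, 0 calls in either limma fit and 1 unadjusted p under 0.05 with pairing, beside 10.0% of all genes.

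Quiescence genes of lymphocytes were lower in 15 of 20 tested members in Tyk2-/- (median -0.081) and in 16 of 20 in Tyk2K923E (median -0.082). Slfn2, a Schlafen gene needed for T cell quiescence, fell by 0.64 in Tyk2-/- (limma paired adjusted p = 0.0446, 1 unpaired) and was the only one of the 20 called there, beside 0.0874% of all genes in the paired fit and 0.0318% in the unpaired one. With pairing, 3 of the 20 in Tyk2-/- and 4 in Tyk2K923E had an unadjusted p under 0.05, beside 9.08% and 10.0% of all genes. In Tyk2K923E it differed by -0.61 and missed the threshold (limma paired adjusted p = 0.0521, 0.773 unpaired). Txnip, an inhibitor of glucose uptake, differed by -0.29 in Tyk2-/- and Cdkn1b, which encodes the cell cycle inhibitor p27, by -0.20 (limma paired adjusted p = 0.295 and 0.478).

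Genes of the cell cycle had no calls between genotypes. Of 29 tested S and M phase genes 28 were higher in Tyk2-/- (median 0.14) and 24 were lower in Tyk2K923E (median -0.080), and limma called 0 in either with or without pairing, with 0 and 1 at an unadjusted p under 0.05 with pairing, beside 9.08% and 10.0% of all genes. Between the mutants, 28 of the 29 were higher in Tyk2-/- than in Tyk2K923E (median 0.22), with 0 calls in either fit and 7 at an unadjusted p under 0.05 with pairing, beside 9.68% of all genes. Mcm5, a subunit of the replicative helicase, had the smallest p in Tyk2-/- (0.21, limma paired adjusted p = 0.566), and the mitotic cyclin Ccnb2 in Tyk2K923E (-0.27, adjusted p = 0.266). Between the mutants the smallest p belonged to Ccnb2, which differed by 0.32, and to Mki67, the Ki-67 proliferation marker, which differed by 0.61 and so by more than Btg2 in any genotype comparison (limma paired adjusted p = 0.452 for each). Among 25 tested G1 cyclins, kinases and their inhibitors, 18 were higher in Tyk2-/- (median 0.047) and 9 in Tyk2K923E (median -0.036), again with 0 calls in both fits and with 3 and 1 at an unadjusted p under 0.05 with pairing, beside 9.08% and 10.0% of all genes. Between the mutants 22 of the 25 were higher in Tyk2-/- (median 0.11), with 0 calls in either fit and 3 at an unadjusted p under 0.05 with pairing, beside 9.68%. Cdk6, the G1 kinase, differed by 0.29 in Tyk2-/- (limma paired adjusted p = 0.3), and Ccnd3, a D-type cyclin, by -0.18 in Tyk2K923E (adjusted p = 0.385), both against WT. The part of the cell cycle genes in the Btg2 result was not tested.

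Immediate early genes, the other class to which Btg2 belongs, had medians of -0.020 in Tyk2-/- and 0.026 in Tyk2K923E over 26 tested members, with 0 calls in both fits and 4 and 6 unadjusted p under 0.05 with pairing, beside 9.08% and 10.0% of all genes. Against WT 17 were lower and 9 higher in Tyk2-/-, and 12 lower and 14 higher in Tyk2K923E. Between the mutants 19 were lower and 7 higher in Tyk2-/- (median -0.060), with 0 calls in either fit. Of these 26 genes 3 had an unadjusted p under 0.05 with pairing there, beside 9.68% of all genes. Against WT in Tyk2-/- and Tyk2K923E, Dusp6, an ERK phosphatase, differed by -0.24 and -0.21 (limma paired adjusted p = 0.344 and 0.28). Csrnp1, a nuclear factor gene, differed in the opposite direction, by 0.23 and 0.22 (adjusted p = 0.439 and 0.348). Egr2, a zinc finger factor, differed by -0.20 and -0.22 (adjusted p = 0.45 and 0.293). Nr4a2, an orphan nuclear receptor, differed by 0.47 in Tyk2K923E (limma paired adjusted p = 0.119).

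Between experiments the list with the median furthest from 0 was that of the S and M phase genes. They were lower in experiment 1 in 29 of 29 tested members, with 28 of them below every other array and a median of -0.78, beside 18.7% of all genes that lay below. Of the 20 quiescence genes 8 lay above all other arrays and 0 below, with a median of 0.17, and of 26 immediate early genes 10 lay above and 2 below, with a median of 0.11, beside 14.5% of all genes that lay above. The G1 list was split, with 9 below and 5 above and a median of -0.12, and the p53 list had 16 of 23 higher, 5 of them above all other arrays and 2 genes below, with a median of 0.041. The other binding partners had 1 above and 2 below, and their median was -0.025. The following genes were chosen after their values were seen. Mki67 differed by -1.30 in experiment 1, whereas Cdkn1b was higher by 0.87, Txnip by 0.97 and Egr1, a serum-responsive transcription factor, by 0.98. Btg2, at 0.97, was high in the experiment in which proliferation genes were low. Of 12 T cell markers 0 lay outside the range of the other arrays in experiment 1, and of 15 NK cell markers 3 lay above and 3 below. Both monocyte and macrophage markers were higher in experiment 1, Cd68 by 0.50 with all 3 arrays above the other 6 and Cd14 by 0.29 with overlap.

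**Figure D4:**
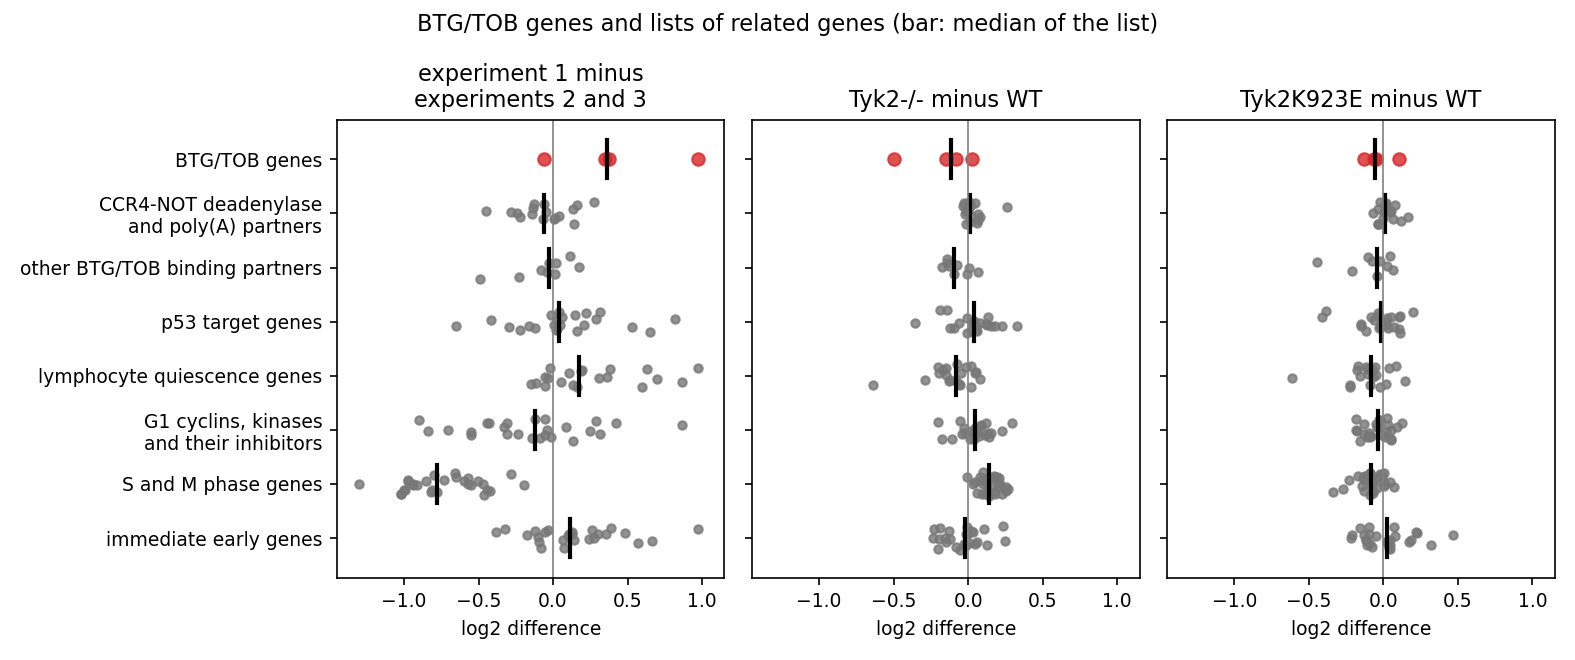
Log2 differences of the 4 tested BTG/TOB genes (red, top) and of the tested members of 7 lists of related genes (grey), with the median of each as a black bar, for experiment 1 minus experiments 2 and 3, Tyk2-/- minus WT and Tyk2K923E minus WT. In the first panel S and M phase genes lie to the left, with a median of -0.78, and 3 BTG/TOB genes to the right, while the medians of the 7 lists lie between -0.094 and 0.14 in the genotype panels.

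The genes whose levels ran most closely with each member over the 9 arrays were found by Pearson correlation, given as a description because the 9 values share 3 experiments. For Btg2 these were Sirt2, a deacetylase (r = 0.993), Akap8l (r = 0.99) and the ubiquitin ligase gene Rnf167 (r = 0.99), each higher in experiment 1, by 0.40, 0.51 and 0.66. For Btg1 they were Gm4997, Ndel1 and Klhl25 (r = 0.978, 0.977 and 0.973) and for Tob1 Gm14407, Ptgr1 and Rpl9 (r = 0.972, 0.971 and 0.965). For Tob2 they were Dnajc14, Gm13889 and Myo1f (r = 0.955, 0.934 and 0.932). After the mean of each experiment had been subtracted, the genes closest to Btg2 were Mylip, a ubiquitin ligase for lipoprotein receptors (r = 0.991), Itgb1bp1 (r = 0.982) and Syap1 (r = 0.981). Their differences between Tyk2-/- and WT were -0.35, -0.13 and -0.19.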

How the data were processed

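Expression in 9 samples of cultured splenic NK cells was measured on Affymetrix arrays. The deposited values were log2 intensities normalised with RMA in Partek 6.6, per the submitters' processing notes, and the genome build is not given in the sources used here. Probe sets with 1 symbol (23521 of 41345, where 1814 carried several and 16010 were unnamed) were kept if they reached the array median on at least 3 arrays, and the brightest stood for its gene. Genotypes were compared with limma 3.58.1 in R 4.3.3 (lmFit, eBayes, all 9 arrays, Benjamini-Hochberg over 12579 genes, threshold 0.05), with the experiment as a fixed block. The labels state independent experiments. Deviations from genotype means correlated at 0.383 to 0.787 between same-experiment arrays of different genotypes (9 pairs) and at -0.71 to 0.559 otherwise (18 pairs). Among arrays of experiments 2 and 3 alone these ranges were 0.383 to 0.600 and 0.253 to 0.559. The contrast thus mainly sets experiment 1 apart and does not by itself show that arrays pair by experiment number. p-values of the paired fit set a difference against the spread between arrays left after experiment and genotype means are removed. eBayes draws this spread towards that of all genes tested. With 1 array per genotype and experiment, differences between pools and between arrays cannot be separated in it. The p-values of the unpaired fit also hold the spread between experiments.

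The members, gene lists and comparisons were chosen with earlier results of these data known. Named were the members and Btg4, per list and comparison up to 3 genes of smallest p, and the 3 genes most correlated with each member. Alternatives were no block, other filters, scalings and priors, only the genotypes compared, the mean over probe sets and leaving out arrays or experiments. Lists were described by counts, without a set test. Promoter windows came from RefSeq (GRCm38.p6) and matched all 4 tested members, and protein sequences were not used here. Figures were drawn with matplotlib 3.10.9 in Python 3.11.15.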

Additional observations from a re-analysis of the deposited data

How the results depend on the processing

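The log2 difference of Btg2 between Tyk2-/- and WT stayed between -0.51 and -0.49 in the 8 alternatives that left out no array, but its call was lost in 3 of them: it was -0.50 without the replicate block (limma adjusted p = 1), -0.50 with no filter on dim probe sets (0.18) and -0.50 with only the 2 genotypes compared (0.217). It was kept under the other 5 (limma adjusted p 0.0179 to 0.048). No other member was called in any alternative. Without the replicate block, 4 genes were called in Tyk2-/- and 1 in Tyk2K923E against WT, where 11 each were called with it. The counts were likewise 4 and 1 with no filter, 19 and 29 with a 70th percentile filter, under which Tob2 was not tested, 22 and 41 with an intensity trend in eBayes and 6 and 2 with only the 2 genotypes compared. In Tyk2K923E, 20 were called after median centring and 17 after quantile normalisation. Leaving out 1 array or 1 experiment gave 3 to 11 calls in Tyk2-/- and 1 to 34 in Tyk2K923E against WT, and 2 to 6 between the mutants, where 3 were called with all arrays. Over the same 12 fits Btg2 differed by -0.55 to -0.45, -0.16 to -0.099 and -0.42 to -0.33 in the 3 comparisons, and Btg1 by -0.18 to -0.10, 0.081 to 0.13 and -0.28 to -0.21. The sign turned within -0.077 to 0.14, -0.15 to 0.10 and -0.039 to 0.19 for Tob1 and -0.17 to 0.018, -0.10 to 0.0056 and -0.13 to 0.070 for Tob2. Differences of experiment 1 from the others kept their sign in all 48 values computed. The cause of these changes was not tested.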
